A study of Mus musculus with 6 samples.

Results

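Glucose is broken down to lactate by a chain of cytosolic enzymes, and the same genes are among the best known targets of the hypoxia-inducible factors (HIFs), transcription factors that are kept low by oxygen-dependent prolyl hydroxylases and accumulate when oxygen falls. Lung is unusual in this respect, since *Epas1*, the gene of the HIF-2α subunit, is strongly expressed by its endothelial and alveolar type II cells. Here, 34 genes of this system were followed in lung tissue after hemorrhagic shock (HS). They were taken by symbol: 24 genes that lead from glucose uptake to lactate export, and 10 genes of the HIF α subunits, the prolyl hydroxylases and hypoxia-induced products. All 34 were found among the 54532 genes with deposited read counts, and all 34 had enough reads to be tested.

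The libraries came from 3 GRdim/dim mice, which are homozygous for a point mutation of the glucocorticoid receptor (GR) that impairs its dimerization, and from 3 wild type littermates (GR+/+), all adult and of the 129/SvEv x C57BL/6 background. Every mouse was anesthetized, ventilated with room air, bled to a low arterial pressure, re-transfused and resuscitated with fluids and norepinephrine before the lung was taken, so both genotypes had undergone HS, and a response to HS itself cannot be read from these libraries. The mutation is present in all cells of the body, and one library of poly(A)-captured RNA stands for one mouse. Judged by *Xist* and Y-linked genes, 2 mice with wild type GR and 1 with mutant GR were female.

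Total counts ranged from 15687734 to 32082940 per library. The mutated gene, *Nr3c1*, was at 138, 145 and 162 CPM in GR+/+ and at 159, 150 and 120 CPM in GRdim/dim lungs (CPM, reads per 1000000 counted reads after TMM scaling), and counts per gene do not show a point mutation. Lung identity was plain in all libraries, with summed levels of 8 alveolar type II genes between 17130 and 25390 CPM. Summed levels of 10 neutrophil genes were 275 to 535 CPM in GR+/+ and 376 to 1196 CPM in GRdim/dim lungs, with the highest sum in GRdim/dim replicate 1, and 9 of 9 tested had log2 fold changes above 0. This was also so for 8 of 8 T cell genes (median 0.90), 7 of 7 NK cell genes (median 1.25) and 7 of 7 B cell genes (median 1.07), the last with sums of 55.7 to 127 CPM in GR+/+ and 139 to 450 CPM in GRdim/dim lungs. In whole tissue, a change in the number of cells of a type and a change of RNA per cell cannot be told apart.

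None of the 34 genes was a differentially expressed gene (DEG) between genotypes, for which edgeR's quasi-likelihood test had to give an adjusted *p*-value below 0.05, with a log2 fold change beyond 0.5 either way. Over all 16568 genes tested, 0.169% were DEGs. The lowest adjusted *p*-value of the 34 was 0.280 from edgeR and 0.0880 from DESeq2, which called 1.7% of the 16150 genes it gave an adjusted *p*-value. Before adjustment, edgeR gave a *p*-value under 0.05 for 5 of the 34 (14.7%, with 9.6% over all genes tested) and DESeq2 for 7 (9.82% over the 16560 of these genes with a DESeq2 *p*-value). The 5 were *Ndrg1* and *Egln3*, with higher values in GRdim/dim lungs (4.91% of all genes), and *Hk2*, *Aldoc* and *Adm*, with lower values (4.68% of all genes). The 7 from DESeq2 were these 5, *Hk3* (higher) and *Epas1* (lower). For 6 of the 34 genes, no GRdim/dim library lay within the range of the GR+/+ libraries or the reverse (17.6%, with 14.8% over all genes tested). Of these, 2 were higher (7.77% of all genes) and 4 lower (7.05% of all genes) in GRdim/dim lungs. Of the 34 log2 fold changes, 21 were above 0 (61.8%, with 50.9% over all genes) and 13 below, with a median of 0.07, beside a median of 0.01 over all genes. The median was -0.046 without GRdim/dim replicate 3 and 0.145 without GRdim/dim replicate 1. With each of the 6 libraries left out in turn, the unadjusted *p*-value stayed under 0.05 in 6 of 6 fits for *Ndrg1*, in 4 for *Hk2* and *Adm* and in 2 for *Aldoc* and *Egln3*. The plot of levels by library shows how close the genotypes lay for most of these genes.

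**Figure D1:**
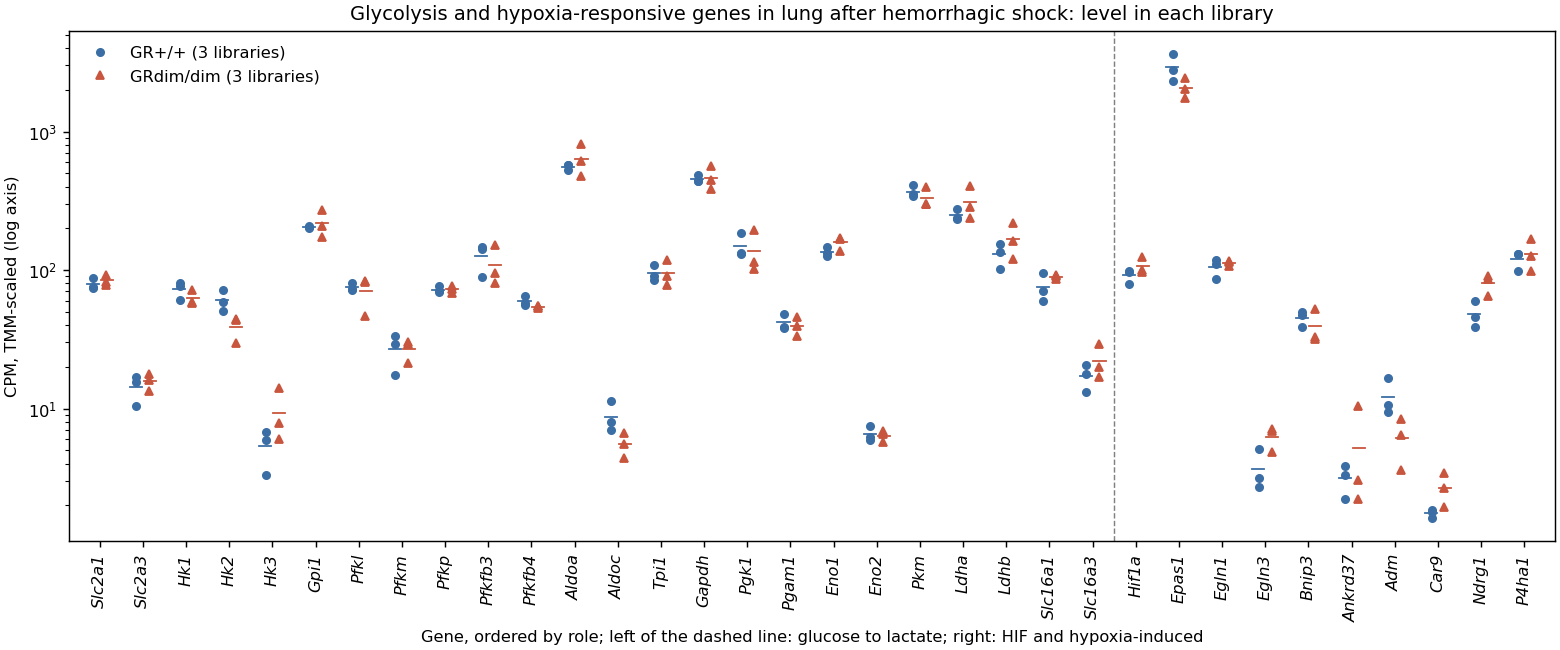
Level of the 34 genes in each library, in CPM on a log axis, with GR+/+ as circles, GRdim/dim as triangles and a short line at each group mean (n = 3). The genotypes overlap for 28 genes, and *Epas1* has the highest CPM, between 1733 and 3603.

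Compared per kilobase of mRNA (the median length of the annotated coding transcripts of a gene), mean levels covered a wide range. *Epas1* was at 527 CPM per kilobase in GR+/+ and 374 in GRdim/dim lungs, and *Aldoa* at 370 and 418. *Gapdh* followed with 354 and 365, *Pkm* with 165 and 148 and *Ldha* with 141 and 175 CPM per kilobase. The lowest levels were those of *Car9*, with 0.869 and 1.32, and *Egln3*, with 1.38 and 2.35 CPM per kilobase. *Epas1* and *Aldoa* changed places between the genotypes with this length only. With the deposited gene length, *Epas1* was above *Aldoa* in both, with 547 and 389 beside 192 and 217 CPM per kilobase. For each of these genes, the libraries of the genotypes overlapped.

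The precision of this comparison differed between the parts of the system. Standard errors (SE) of the log2 fold changes ran from 0.15 (*Pfkp*) to 0.54 (*Ankrd37*). For 21 of the 24 genes of the glucose to lactate chain the 95% interval of the log2 fold change lay within 1 on either side of 0, so a change of more than that size was outside the interval for them. This held for 4 of the 10 HIF and hypoxia-induced genes.

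Glucose enters cells through facilitative transporters. *Slc2a1*, the gene of the widely expressed transporter GLUT1, was at 73.9, 75.1 and 87.1 CPM in GR+/+ and at 78.2, 81.7 and 92.3 CPM in GRdim/dim lungs, with a log2 fold change of 0.10 (95% interval -0.25 to 0.44). Per kilobase of mRNA, *Slc2a1* made up 86.9% ± 3.62 (SD, n = 3) of the summed level of the 2 transporters in GR+/+ and 86.6% ± 2.56 (SD, n = 3) in GRdim/dim lungs. The rest was *Slc2a3*, the high-affinity transporter GLUT3 of leukocytes and neurons, which had a log2 fold change of 0.14 (-0.41 to 0.69).

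Hexokinases commit glucose to metabolism by phosphorylation. *Hk1*, the housekeeping isoform, was at 77.2, 80.9 and 60.4 CPM in GR+/+ and at 58.7, 58.0 and 71.8 CPM in GRdim/dim lungs. These groups overlapped, and the log2 fold change was -0.21 (SE 0.18). *Hk2*, the inducible isoform bound to mitochondria and a HIF target, was at 58.9, 51.0 and 71.3 CPM in GR+/+ and at 43.4, 29.9 and 44.0 CPM in GRdim/dim lungs. Every GRdim/dim library thus lay below every GR+/+ library, by a log2 fold change of -0.63 (SE 0.21, edgeR unadjusted *p* = 0.0123 and adjusted *p* = 0.366).

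*Hk3*, the isoform of myeloid cells, was at 6.75, 5.94 and 3.33 CPM in GR+/+ and at 14.0, 6.02 and 7.81 CPM in GRdim/dim lungs. Its highest value was in GRdim/dim replicate 1, the library with the highest sum of neutrophil genes, and the part of these cells in the result was not tested. The log2 fold change of 0.81 (SE 0.38, edgeR adjusted *p* = 0.550) was 0.39 without this library. The unadjusted *p*-value was 0.0604 from edgeR and 0.0345 from DESeq2 (adjusted 0.425). As shares of hexokinase mRNA per kilobase, *Hk2* was 32.4%, 28.7% and 43.5% in GR+/+ and 28.3%, 24.1% and 27.3% in GRdim/dim libraries. The share of *Hk3* was 6.85%, 6.16% and 3.76% in GR+/+ and 16.9%, 8.96% and 8.95% in GRdim/dim libraries. The groups did not overlap for either share, also when the deposited gene length replaced the mRNA length. Whether *Hk1* or *Hk2* had the higher level per kilobase in GR+/+ lungs depended on that choice of length. The log2 ratio of *Hk2* to *Hk1* counts was -0.27 ± 0.46 in GR+/+ and -0.70 ± 0.26 in GRdim/dim lungs (SD, n = 3 each, two-sided exact permutation test, *p* = 0.2).

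The stretch before the start of *Hk2* is shown because it holds a sequence known to be bound by HIFs. HIFs recognize the core ACGTG or GCGTG in either orientation (CACGT or CACGC when read on this strand), and CACGT can overlap the E-box CACGTG of other factors. In the 250 bases before the start, from RefSeq on GRCm38.p6, this core was found in 36 of 43 start sites of 31 of the genes (83.7%), in 52.6% of the start sites of all genes tested and in 38.6% of all start sites listed. The full palindromic site of GR, searched as GNACANNNTGTNC, was found in 0 of the 43 and in 0.387% of all start sites. The hexamer AGAACA, one arm of such a site, in either orientation, was found in 18.6% of the 43, in 11.4% of the start sites of all genes tested and in 16.1% of all start sites. These are matches of letters and not sites shown to be bound. Of the 5 genes with an edgeR unadjusted *p*-value under 0.05, *Ndrg1* had no start site listed, and the stretch of *Aldoc* overlaps an annotated exon. The 250 bases are given for the other 3, in the direction of transcription and with the HIF core in capitals. They are those of *Hk2* (chr6:82774455-82774704, minus strand), *Egln3* (chr12:54203875-54204124, minus strand) and *Adm* (chr7:110627407-110627656, plus strand), none of which overlaps an annotated exon in GENCODE M21.
Hk2: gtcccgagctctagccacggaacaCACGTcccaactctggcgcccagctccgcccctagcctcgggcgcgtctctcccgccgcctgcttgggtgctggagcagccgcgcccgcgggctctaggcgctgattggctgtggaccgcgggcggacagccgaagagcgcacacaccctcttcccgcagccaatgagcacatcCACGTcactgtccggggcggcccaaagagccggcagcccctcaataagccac
Egln3: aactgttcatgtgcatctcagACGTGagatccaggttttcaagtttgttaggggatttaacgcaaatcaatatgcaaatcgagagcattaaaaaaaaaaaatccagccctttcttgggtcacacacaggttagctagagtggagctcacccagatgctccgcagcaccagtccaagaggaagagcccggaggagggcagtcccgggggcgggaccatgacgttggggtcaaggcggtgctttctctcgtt
Adm: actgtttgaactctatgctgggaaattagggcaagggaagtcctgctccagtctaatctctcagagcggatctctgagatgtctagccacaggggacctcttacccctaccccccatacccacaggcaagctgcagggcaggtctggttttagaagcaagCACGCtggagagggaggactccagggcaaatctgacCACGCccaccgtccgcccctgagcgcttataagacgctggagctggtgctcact

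*Hk2* and *Adm* have 2 cores each in these stretches, CACGT in *Hk2* and CACGC in *Adm*, while *Egln3* has 1, ACGTG. The core was present in genes with lower values in GRdim/dim lungs (*Hk2*, *Adm*) and in one with higher values (*Egln3*). As 36 of the 43 start sites held it, this cannot tell whether the core goes with direction.

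*Gpi1*, which isomerizes glucose-6-phosphate, was at 205, 200 and 208 CPM in GR+/+ and at 174, 208 and 270 CPM in GRdim/dim lungs (log2 fold change 0.09). The GR+/+ libraries lay within a few CPM of each other, and the GRdim/dim libraries on both sides of them. Phosphofructokinase, the main control point of the chain, is built from 3 subunits. *Pfkl* had a log2 fold change of -0.09 (SE 0.22), *Pfkm* of 0.01 (SE 0.26) and *Pfkp* of 0.01 (SE 0.15). The liver type *Pfkl* and the platelet type *Pfkp* had the higher levels per kilobase of mRNA, with 39.7% ± 2.88 and 41.7% ± 2.83 of the subunits in GR+/+ lungs (SD, n = 3). The muscle type *Pfkm* made up 18.7% ± 5.65 in GR+/+ and 19.1% ± 1.04 in GRdim/dim lungs (SD, n = 3). With the deposited gene length in place of the mRNA length, *Pfkp* had the lowest level of the 3. *Pfkm* was lowest in GR+/+ replicate 3, at 17.4 CPM, where the summed level of 9 cardiomyocyte genes was 177 CPM, beside 452 to 1020 CPM in the other libraries. In the GRdim/dim libraries the order differed, with *Pfkm* at 21.4, 30.12 and 29.25 CPM and sums of 677, 452 and 914 CPM. The part of cardiomyocytes in the level of *Pfkm* was not tested.

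The bifunctional enzymes that set the amount of the activator of phosphofructokinase are encoded by *Pfkfb3*, which is inducible by hypoxia and inflammation, and *Pfkfb4*. *Pfkfb3* was at 147, 142 and 89.1 CPM in GR+/+ and at 153, 80.3 and 95.2 CPM in GRdim/dim lungs. Both genotypes thus held high and low libraries. The log2 fold change was -0.20 (SE 0.27), and it was -0.51 without GRdim/dim replicate 1 and -0.02 without GRdim/dim replicate 2. *Pfkfb4* was at 64.6, 58.0 and 55.8 CPM in GR+/+ and at 55.4, 54.7 and 53.3 CPM in GRdim/dim lungs. Its groups did not overlap, and the log2 fold change was -0.13 (SE 0.15, edgeR adjusted *p* = 0.869).

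*Aldoa*, the muscle type aldolase, was at 529, 572 and 576 CPM in GR+/+ and at 475, 610 and 809 CPM in GRdim/dim lungs (log2 fold change 0.18, SE 0.22). It was higher in GRdim/dim replicate 3 than in any other library, and without it the log2 fold change was -0.04. A second gene of the same symbol, ENSMUSG00000114515, lies next to it and was at 0.97 to 1.98 CPM. *Aldoc*, the brain type aldolase, was at 7.95, 6.96 and 11.4 CPM in GR+/+ and at 4.37, 5.53 and 6.65 CPM in GRdim/dim lungs. The groups did not overlap, and *Aldoc* had a log2 fold change of -0.67 (SE 0.30, edgeR unadjusted *p* = 0.0447 and adjusted *p* = 0.502). It was -0.44 (edgeR unadjusted *p* = 0.192) without GR+/+ replicate 3. Relative to *Aldoa* within the same library, *Aldoc* was at a log2 ratio of -6.01 ± 0.34 in GR+/+ and of -6.80 ± 0.09 in GRdim/dim lungs (SD, n = 3 each). Here too no library overlapped (two-sided exact permutation test, *p* = 0.1, the smallest that 3 against 3 can give).

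From triose phosphates to pyruvate, log2 fold changes lay between -0.15 (*Pkm*) and 0.23 (*Eno1*). *Tpi1*, triose phosphate isomerase, had a log2 fold change of 0.01 (SE 0.19). *Gapdh*, often used as a reference gene, was at 436, 436 and 482 CPM in GR+/+ and at 388, 443 and 564 CPM in GRdim/dim lungs. Its log2 fold change was 0.04 (95% interval -0.39 to 0.48), and the GRdim/dim libraries lay on both sides of the GR+/+ libraries. Its reads are uncertain, as 84.1% of its mRNA sequence is shared with other annotated genes, and the same holds for *Eno1* (77.2%), *Pgk1* (68.3%) and *Pkm* (50.9%). *Pgk1* and *Pgam1*, the kinase and the mutase that follow, had log2 fold changes of -0.14 and -0.09.

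*Eno1*, the common enolase, was at 135 ± 10.6 CPM in GR+/+ and 158 ± 17.6 CPM in GRdim/dim lungs (SD, n = 3 each), and its log2 fold change was 0.23 (SE 0.16). The neuronal enolase *Eno2* was at 6.54 ± 0.824 and 6.39 ± 0.600 CPM (SD, n = 3 each), and per kilobase of mRNA it made up 3.64% of enolase in GR+/+ and 3.07% in GRdim/dim lungs. The log2 ratio of *Eno2* to *Eno1* was -4.35 ± 0.07 in GR+/+ and -4.61 ± 0.04 in GRdim/dim lungs (SD, n = 3 each), without overlap (two-sided exact permutation test, *p* = 0.1, the smallest possible). *Pkm*, which makes pyruvate, was at 353, 340 and 412 CPM in GR+/+ and at 299, 297 and 398 CPM in GRdim/dim lungs. Each group held 1 high and 2 lower libraries, and the log2 fold change was -0.15 (SE 0.19). Counts per gene do not separate the splice forms of *Pkm*.

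Lactate dehydrogenase converts pyruvate to lactate and back, and *Ldha* encodes the subunit that favors lactate. *Ldha* was at 238, 232 and 277 CPM in GR+/+ and at 283, 237 and 406 CPM in GRdim/dim lungs (log2 fold change 0.31, SE 0.22, edgeR adjusted *p* = 0.725). *Ldhb*, the subunit of oxidative tissue, was at 101, 134 and 153 CPM in GR+/+ and at 120, 220 and 162 CPM in GRdim/dim lungs (log2 fold change 0.37, SE 0.24). *Ldha* was highest in GRdim/dim replicate 3, without which its log2 fold change was 0.06. *Ldhb* was highest in GRdim/dim replicate 2, without which its log2 fold change was 0.12. The log2 ratio of *Ldha* to *Ldhb* was 0.96 ± 0.24 in GR+/+ and 0.89 ± 0.68 in GRdim/dim lungs (SD, n = 3 each, two-sided exact permutation test, *p* = 0.9), and it was 1.23, 0.10 and 1.33 in the single GRdim/dim libraries.

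Lactate leaves cells through monocarboxylate transporters. *Slc16a1*, the gene of MCT1, was at 74.9 ± 18.2 CPM in GR+/+ and 89.6 ± 3.06 CPM in GRdim/dim lungs (SD, n = 3 each, log2 fold change 0.26). *Slc16a3*, the gene of the hypoxia-inducible exporter MCT4, was at 17.2 ± 3.79 and 22.1 ± 6.43 CPM (SD, n = 3 each, log2 fold change 0.36, SE 0.26). GRdim/dim replicate 3 was the highest library for *Slc16a3*, and the log2 fold change was 0.11 without it. For *Slc16a1* it was 0.12 without GR+/+ replicate 2 and 0.47 without GR+/+ replicate 3. Summed over the 24 genes of the chain, the level was 3082 ± 149 CPM in GR+/+ and 3220 ± 528 CPM in GRdim/dim lungs (SD, n = 3 each), with 3821 CPM in GRdim/dim replicate 3. This library held the highest level of 11 of the 34 genes.

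**Figure D2:**
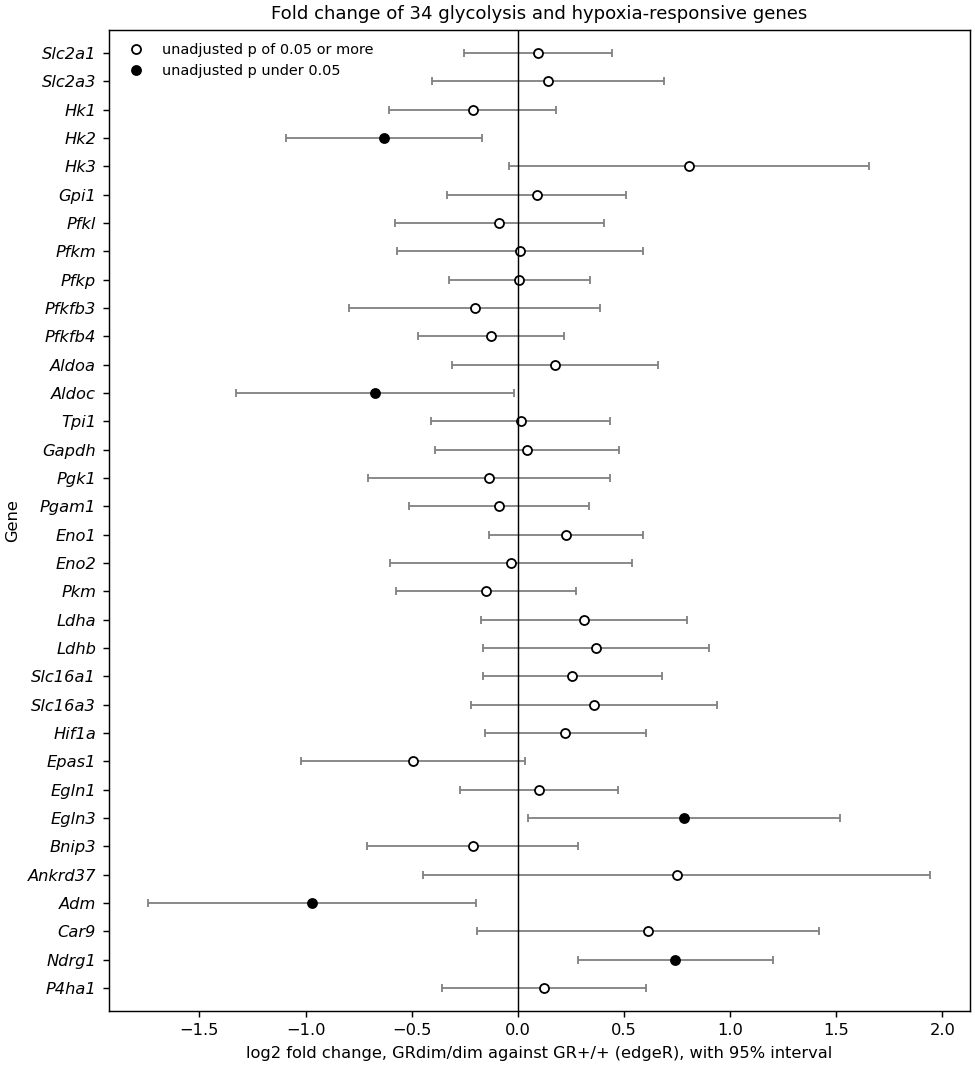
log2 fold change of each of the 34 genes in GRdim/dim against GR+/+ lungs from edgeR, with its 95% interval; filled points mark the 5 genes with an unadjusted *p*-value under 0.05. Most genes of the chain lie close to 0, while *Adm*, *Ankrd37*, *Hk3* and *Car9* have wide intervals.

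Of the HIF α subunits, *Epas1* had the higher level per kilobase of mRNA and made up 96.2% ± 1.15 of their sum in GR+/+ and 93.9% ± 1.73 in GRdim/dim lungs (SD, n = 3 each). *Epas1* was at 2796, 3603 and 2319 CPM in GR+/+ and at 1733, 2442 and 2017 CPM in GRdim/dim lungs. The lowest GR+/+ and the highest GRdim/dim library overlapped. The log2 fold change was -0.49 (95% interval -1.02 to 0.03, edgeR unadjusted *p* = 0.0639 and adjusted *p* = 0.557), and it was -0.63 (edgeR unadjusted *p* = 0.0234) without GR+/+ replicate 3 and -0.30 (0.280) without GR+/+ replicate 2. DESeq2 gave *Epas1* an unadjusted *p*-value of 0.0306 and an adjusted one of 0.400. Summed levels of 10 endothelial genes were 4614, 4809 and 3179 CPM in GR+/+ and 3660, 4243 and 4059 CPM in GRdim/dim lungs, so that within each genotype the libraries stood in the same order for *Epas1* and for these genes. Of the 10 endothelial genes, 2 had log2 fold changes above 0 and 8 below, and their sums overlapped between genotypes. Summed levels of 8 alveolar type II genes were 20290, 17130 and 24980 CPM in GR+/+ and 17250, 21410 and 25390 CPM in GRdim/dim lungs. Within each genotype these sums stood in another order than *Epas1*. The part of either cell type in the result was not tested.

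*Hif1a*, the gene of the ubiquitous HIF-1α subunit, which is controlled mainly at the level of its protein, was at 98.6, 79.3 and 97.5 CPM in GR+/+ and at 125, 99.8 and 97.1 CPM in GRdim/dim lungs. It had a log2 fold change of 0.22 (SE 0.17, edgeR adjusted *p* = 0.754). The log2 ratio of *Hif1a* to *Epas1* was -4.97 ± 0.48 in GR+/+ and -4.26 ± 0.42 in GRdim/dim lungs (SD, n = 3 each, two-sided exact permutation test, *p* = 0.2). Of the prolyl hydroxylases that mark HIF for degradation, *Egln1*, the main oxygen sensor, was at 105 ± 16.9 and 112 ± 5.38 CPM (SD, n = 3 each, log2 fold change 0.10). *Egln3*, a hydroxylase that is itself induced by HIF, was at 5.08, 3.18 and 2.73 CPM in GR+/+ and at 4.85, 6.85 and 7.10 CPM in GRdim/dim lungs. One library of each genotype lay at about the same level, and *Egln3* had a log2 fold change of 0.78 (SE 0.33, edgeR unadjusted *p* = 0.0393 and adjusted *p* = 0.491).

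Hypoxia-induced products had differences of both signs. *Ndrg1*, a stress and differentiation gene induced by hypoxia, had the smallest *p*-value of the 34. *Ndrg1* (ENSMUSG00000005125, chromosome 15 of GRCm38 from 66929318 to 66969640) was at 59.9, 45.5 and 39.0 CPM in GR+/+ and at 85.5, 65.0 and 90.9 CPM in GRdim/dim lungs. All GRdim/dim libraries lay above all GR+/+ libraries, with a log2 fold change of 0.74 (SE 0.21, 95% interval 0.28 to 1.20, unadjusted *p* = 0.00475). Its adjusted *p*-value of 0.280 from edgeR did not pass, and it ranked 281 among all genes tested. Leaving out each library in turn gave fold changes of 0.61 to 0.94 on the log2 scale. The adjusted *p*-value was 0.0267 from edgeR without a filter on low counts, the 1 alternative that called any of the 34 genes, with a range of 0.0267 to 0.508 over all alternatives.

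*Adm*, the gene of the vasodilator and endothelial barrier peptide adrenomedullin, had the largest difference toward lower values. *Adm* (ENSMUSG00000030790, chromosome 7 from 110627661 to 110629820) was at 9.50, 16.5 and 10.6 CPM in GR+/+ and at 6.42, 8.47 and 3.62 CPM in GRdim/dim lungs. The groups did not overlap, and the log2 fold change was -0.97 (SE 0.35, edgeR unadjusted *p* = 0.0186 and adjusted *p* = 0.417). It lay between -1.27 and -0.69 with a library left out.

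The other hypoxia-induced products were not past an unadjusted *p*-value of 0.05. *Car9*, the gene of the carbonic anhydrase that exports acid from hypoxic cells, was at 1.79, 1.86 and 1.62 CPM in GR+/+ and at 1.94, 3.45 and 2.65 CPM in GRdim/dim lungs (log2 fold change 0.61, SE 0.36, and 0.39 without GRdim/dim replicate 2). Its groups did not overlap, although the lowest GRdim/dim and the highest GR+/+ library lay close together, and an antisense gene covers 9.29% of its exons with 26 to 53 reads per library. *Ankrd37*, a HIF target of little known function, was at 2.21, 3.84 and 3.33 CPM in GR+/+ and at 2.21, 10.4 and 3.04 CPM in GRdim/dim lungs, and 22.7% of its exons lie opposite those of *Lrp2bp*. Only GRdim/dim replicate 2 was high, and the log2 fold change of 0.75 (SE 0.54) became -0.26 without it. *Bnip3*, a mitophagy receptor, and *P4ha1*, a collagen prolyl hydroxylase subunit, had log2 fold changes of -0.21 (SE 0.22) and 0.12 (SE 0.22).

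**Figure D3:**
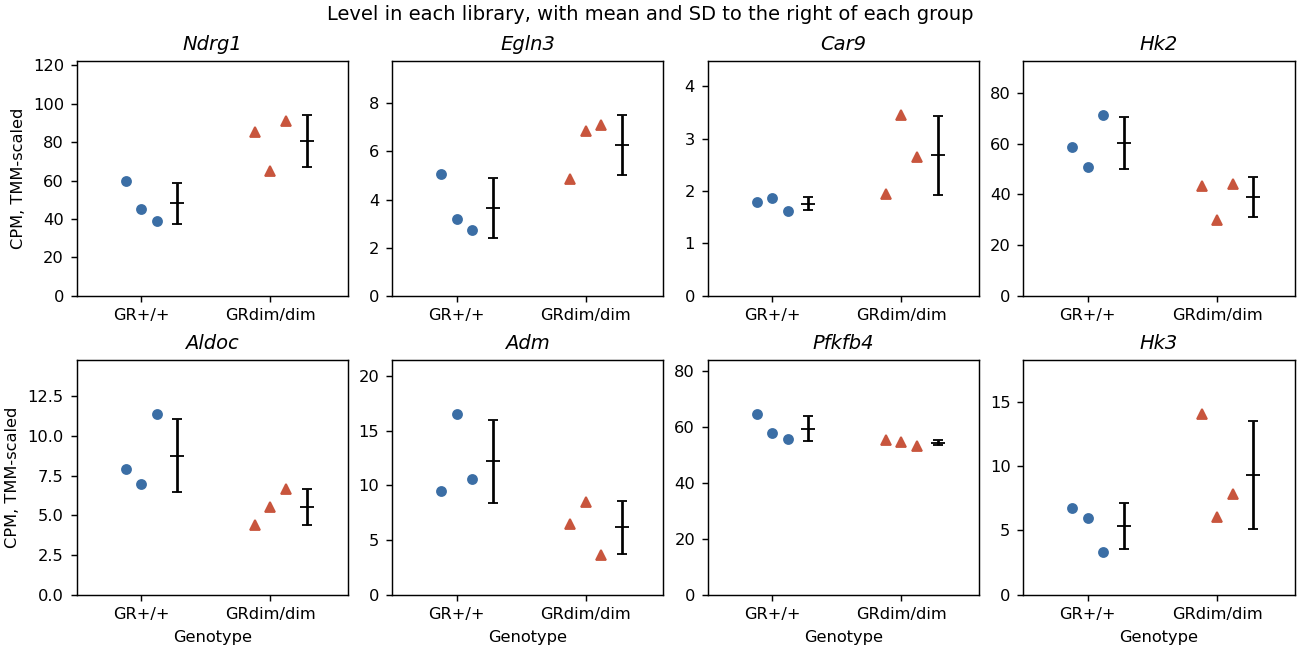
CPM of 8 genes in each of the 3 GR+/+ (circles) and 3 GRdim/dim (triangles) libraries on axes that start at 0, with the mean and SD of each group to the right of its points. *Ndrg1* and *Car9* lie higher and *Hk2*, *Aldoc*, *Adm* and *Pfkfb4* lower in GRdim/dim without overlap, while *Egln3* and *Hk3* overlap.

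Pairs of genes were compared within each library, since such a ratio does not depend on how libraries are scaled. Of the 10 pairs, *Aldoc* to *Aldoa* and *Eno2* to *Eno1* did not overlap between genotypes, and both had a two-sided exact permutation *p* of 0.1 (0.4 after adjustment over the 10 pairs). With 3 lungs against 3, no pair could go below 0.1. *Egln3* to *Egln1* differed by 0.68 on the log2 scale (exact permutation test, *p* = 0.2). *Slc2a1* to *Slc2a3*, *Pfkp* to *Pfkl*, *Slc16a3* to *Slc16a1* and *Pfkfb4* to *Pfkfb3* differed by -0.06, 0.14, 0.06 and 0.10.

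**Figure D4:**
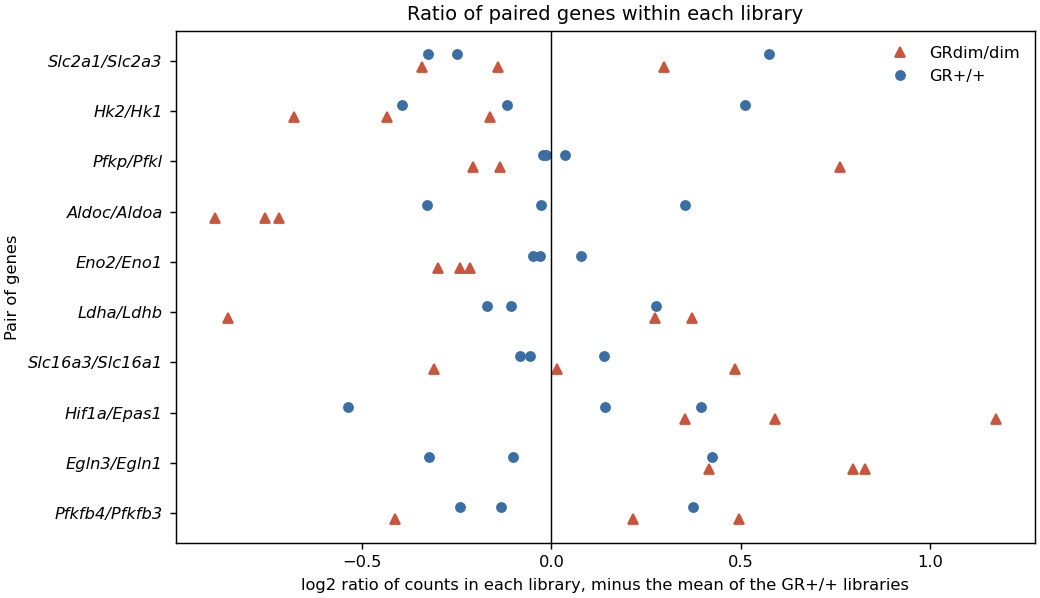
log2 ratio of counts of 10 gene pairs in each library, drawn as the distance from the mean of the GR+/+ libraries, with GR+/+ as circles and GRdim/dim as triangles. The triangles lie left of all circles for *Aldoc*/*Aldoa* and *Eno2*/*Eno1* and among the circles or to one side of some of them for the other 8 pairs.

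Further genes of the same pathways were taken from the same fit, by lists that were written with earlier results of these data known. Of 35 other genes of glycolysis and linked sugar metabolism that could be tested, 0 were DEGs in edgeR's test. An unadjusted *p*-value under 0.05 was given for 3 (8.57%, with 9.6% over all genes tested). DESeq2 called 1 of the 35, beside 1.7% of all genes it gave an adjusted *p*-value. This was *Fbp2*, the muscle type fructose bisphosphatase that runs against phosphofructokinase. *Fbp2* was at 4.36, 4.20 and 4.51 CPM in GR+/+ and at 6.04, 11.8 and 11 CPM in GRdim/dim lungs (log2 fold change 1.14, SE 0.31, edgeR adjusted *p* = 0.255 and 0.0359 from DESeq2). *Gpd1*, the cytosolic glycerol phosphate dehydrogenase, was at 26.9, 44.7 and 32.2 CPM in GR+/+ and at 13.6, 15 and 30.5 CPM in GRdim/dim lungs, with overlap of 1 library of each genotype (log2 fold change -0.82, and -1.27 without GRdim/dim replicate 3).

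Of 42 other HIF pathway and hypoxia-induced genes tested, 0 were DEGs in edgeR's test. An unadjusted *p*-value under 0.05 was given for 10 (23.8%, with 9.6% over all genes tested), 5 in each direction. As this list too was written with earlier results of these data known, its share is no test of the pathway. *Hilpda*, a hypoxia-induced lipid droplet gene, was at 51.1, 59.5 and 88.8 CPM in GR+/+ and at 93.9, 265 and 134 CPM in GRdim/dim lungs, without overlap. Its log2 fold change was 1.31 (SE 0.36, edgeR adjusted *p* = 0.275), and it was 0.78 without GRdim/dim replicate 2. DESeq2 called it (adjusted *p* = 0.00889) as the 1 gene of the 42, beside 1.7% of all genes. *Ier3*, an early-response gene, *Ppp1r3c*, a glycogen targeting subunit, *Bhlhe40*, a transcriptional repressor, and *Arnt2*, a partner of HIF α subunits, also had higher values, with log2 fold changes of 0.57, 0.82, 0.52 and 1.20. Without GRdim/dim replicate 2, that of *Ppp1r3c* was 0.49 (edgeR unadjusted *p* = 0.0783). *Arnt2* had few reads, 48 in all GR+/+ and 99 in all GRdim/dim libraries. It was at 0.54, 0.78 and 0.83 CPM in GR+/+ and at 1.83, 1.95 and 1.16 CPM in GRdim/dim lungs. With a library left out, its edgeR unadjusted *p*-value stayed under 0.05 in 3 of 6 fits.

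Lower values were found for *Hif3a*, which encodes a further α subunit that can oppose HIF, with 20.3, 20.3 and 7.53 CPM in GR+/+ and 9.0, 9.01 and 2.65 CPM in GRdim/dim lungs (log2 fold change -1.21, SE 0.49, edgeR adjusted *p* = 0.472). Replicate 3 was the lowest library of each genotype, and the groups overlapped through it. *Cited2*, which competes with HIF for its coactivator, was at 117, 102 and 101 CPM in GR+/+ and at 66.1, 87.4 and 44.4 CPM in GRdim/dim lungs (log2 fold change -0.69, SE 0.23, edgeR adjusted *p* = 0.366). *Stc2*, *Angptl4* and *Ak4* had log2 fold changes of -0.76, -0.52 and -0.60, and the genotypes overlapped for *Stc2* and *Angptl4*. With a library left out, the edgeR unadjusted *p*-value stayed under 0.05 in 2 of 6 fits for *Stc2* and *Angptl4* and in 1 for *Ak4*. *Vegfa*, the best known HIF target, was at 1148 ± 55.0 CPM in GR+/+ and 1121 ± 127 CPM in GRdim/dim lungs (SD, n = 3 each, log2 fold change -0.03).

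**Figure D5:**
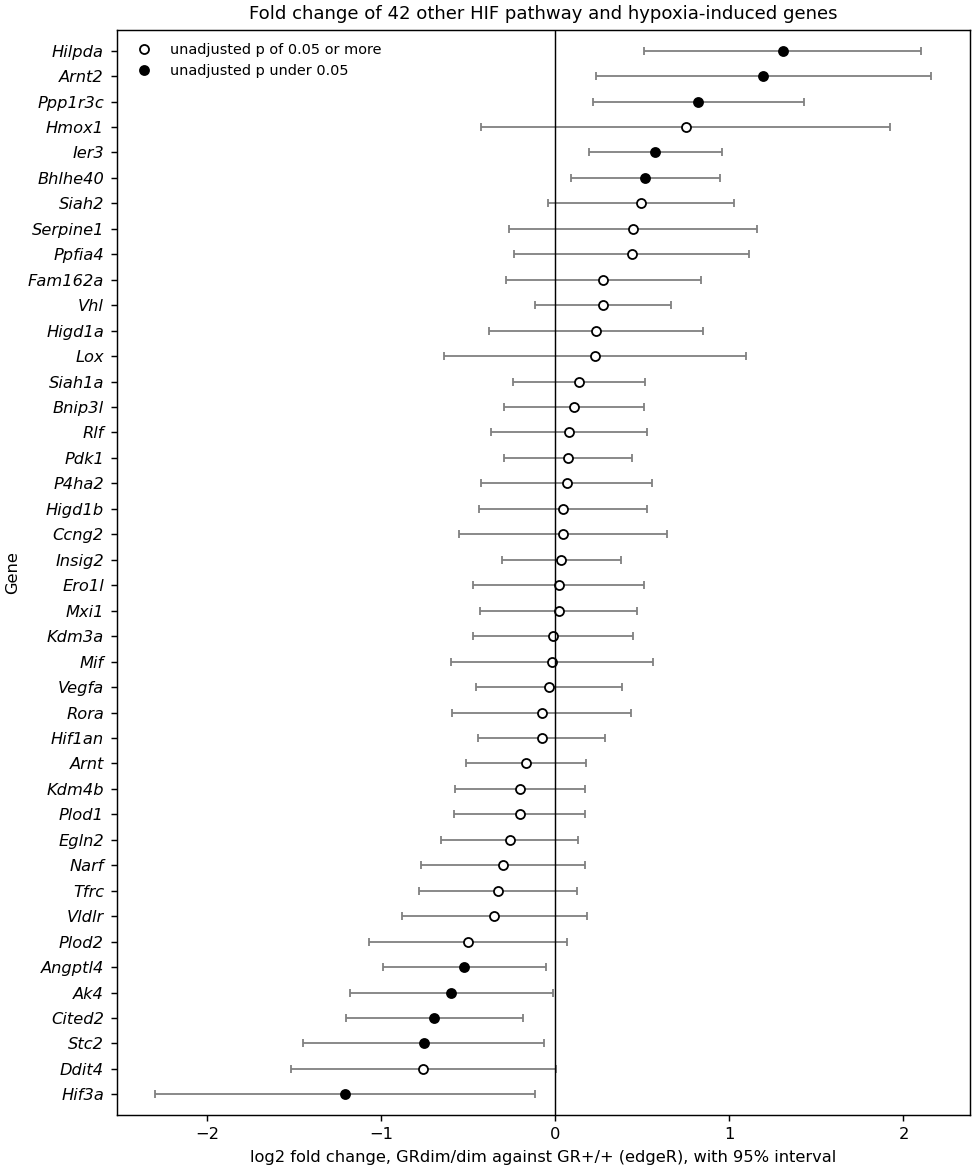
log2 fold change of the 42 other HIF pathway and hypoxia-induced genes tested, from edgeR with 95% intervals, in order of size; filled points mark the 10 genes with an unadjusted *p*-value under 0.05. *Hilpda* (1.31) is at the top and *Hif3a* (-1.21) at the bottom, with as many filled points above 0 as below.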

How the data were processed

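RNA of 3 GR+/+ and 3 GRdim/dim lungs was sequenced by a commercial provider as poly(A)-captured libraries. The authors deposited raw read counts per Ensembl gene, and the processing notes name mm10 and DESeq2. Aligner, counter and use of strand are not given in the sources used here. Coordinates matched GENCODE M21 (GRCm38) for 53585 of 54532 genes. The groups come from the sample titles. The 34 genes, the further lists, pairs and markers and the rule for named genes (all 34, and those of the further lists with an unadjusted *p*-value under 0.05) were chosen with earlier results of these data known. A gene that this rule names is not reported here.

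Counts were tested in R 4.3.3 with edgeR 4.0.16 (TMM, filterByExpr, robust glmQLFit, glmQLFTest, genotype only) over 16568 genes with Benjamini-Hochberg adjustment. Standard errors are the absolute fold change over the square root of F. DESeq2 1.42.0 was an alternative, as were RLE scaling, other filters, a replicate block, a sex-linked covariate and left-out libraries. Levels per kilobase use the median length of a gene's CCDS transcripts in GENCODE M21, since the deposited lengths join all exons. Log2 ratios used a prior count of 2. The edgeR procedure was tried on simulated counts with known changes. These were larger than any seen among the 34 genes, so the trial does not bear on smaller differences. Reads of 11 of the 34 genes are uncertain, because 18.2% (*Tpi1*) to 84.1% (*Gapdh*) of the 31-base windows of their mRNA occur in transcripts of other genes, mostly pseudogenes. For the others the share is at most 2.58%. Libraries of the same genotype were farther apart than sampling alone gives (chi-square per degree of freedom 19.2 to 63.0), and mice are the replicates.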

Additional observations from a re-analysis of the deposited data

How the results depend on the processing

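RLE scaling, a minimum of 10 counts in every library, the sex-linked covariate, the replicate block and DESeq2 called 0 of the 34 genes, whereas no filter on low counts called 1 (*Ndrg1*). Over all genes tested, the 28 DEGs became 522 without a filter and 274 with DESeq2, and leaving out single libraries gave 4 (without GR+/+ replicate 2) to 22, with none of the 34 genes among them. The replicate numbers were not taken to pair the mice, as the paper names no pairs. Correlations of same-numbered libraries (0.22, 0.04 and -0.05) cannot settle this. With the replicate block, 34 of all genes tested were DEGs. Without a filter, *Hilpda*, *Hif3a*, *Cited2*, *Fbp2* and *Gpd1* were called among the further genes. Of the 442 log2 fold changes of the 34 genes under alternatives, 419 kept their direction, and the 23 that turned, in 14 genes with values near 0 or resting on one library, all came from a left-out library. The lowest read count of any of the 34 genes in one library was 30.

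With each library left out in turn, log2 fold changes ranged from -0.045 to 0.28 for *Slc2a3*, from -0.10 to 0.23 for *Gpi1*, from -0.23 to 0.15 for *Pfkl*, from -0.23 to 0.21 for *Pfkm*, from -0.024 to 0.053 for *Pfkp*, from -0.042 to 0.35 for *Aldoa*, from -0.16 to 0.14 for *Tpi1*, from -0.12 to 0.17 for *Gapdh*, from -0.48 to 0.050 for *Pgk1*, from -0.21 to 0.031 for *Pgam1*, from -0.10 to 0.077 for *Eno2*, from -0.027 to 0.20 for *Egln1*, from -0.26 to 1.12 for *Ankrd37* and from -0.10 to 0.30 for *P4ha1*. Without a change of direction they moved by over 1.5 times for further genes, among them *Slc2a1* (0.02 to 0.17), *Hk1* (-0.33 to -0.12), *Pfkfb4* (-0.17 to -0.06), *Pkm* (-0.30 to -0.06), *Hif1a* (0.11 to 0.29) and *Bnip3* (-0.48 to -0.09). The difference in log2 ratio between genotypes ranged from -0.24 to 0.23 for *Slc2a1*/*Slc2a3*, from -0.17 to 0.31 for *Pfkp*/*Pfkl*, from -0.29 to 0.32 for *Ldha*/*Ldhb*, from -0.15 to 0.25 for *Slc16a3*/*Slc16a1* and from -0.10 to 0.36 for *Pfkfb4*/*Pfkfb3*. The other 5 pairs kept their direction. The cause of these turns was not tested.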
